A study of Mus musculus with 20 samples.

Results

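Bladders of mice titled as treated were compared with bladders titled as control: 3 treated and 5 control arrays, 8 of the 20 arrays of the study. The arrays were taken by their labels, and no measured value was used to choose them. The mice, on an FVB/N background, had a genotype with floxed Rb alleles and loss of p107 among its changes. Tumors were started in the study by putting into the bladder an adenovirus that carries Cre recombinase, the enzyme that deletes floxed genes. Treated mice received CM272 at 5 mg/kg per day into the peritoneum for 30 days, with CDDP (cisplatin) at 6 mg/kg once per week. One protocol text stands on all samples, controls included, so the labels do not state what the control mice received. Control bladder is read here as bladder without induced tumor or drugs, in which case effects of virus and drugs cannot be told apart. The share of cells that lost the floxed genes is not stated for any bladder. The labels do not say whether arrays of a group came from separate mice, so each p-value speaks of the scatter among samples, and some of that scatter may be technical. The comparison asked how far treated tissue stood from bladder without induced tumor. Values are log2 levels from whole-transcript arrays, so a difference of 1 is 2-fold.

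The bladder wall has an inner epithelium, the urothelium, with umbrella cells that face the urine and carry uroplakin plaques, and basal cells beneath them. Below lie a connective tissue of fibroblasts and vessels and then the detrusor, a thick layer of smooth muscle that empties the organ. Rb and its relative p107 hold back the E2F factors that switch on genes of DNA replication and mitosis. CM272 inhibits the histone methyltransferase G9a and DNA methyltransferases, which write repressive marks on chromatin. Cisplatin crosslinks DNA. In whole tissue, fewer cells of a type and less RNA per cell cannot be told apart. One uroplakin went with the tissue label in both groups. Upk1b, an umbrella cell membrane protein, read 9.63 to 12.67 in control and 9.16 to 12.14 in treated bladder (a gene picked after values were seen). Upk3a, another uroplakin, was lower, at 7.93 to 8.77 in treated bladder and only 6.58 to 6.64 in control bladder 4 to 6.

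Treated bladder was not separated from control bladder. In the fit of 19 arrays with limma, 0 of 30142 genes (0%) passed at a Benjamini-Hochberg adjusted p under 0.05, and 230 had an unadjusted p under 0.05, against 1507.1 expected by chance. A count below the chance number does not show that the groups are alike. The fit takes its spread from tumors and metastases too. Array weights, a trended and robust prior and the fit of these 8 arrays alone gave 0 as well. They had 1931 (above the chance number), 208 and 607 genes at the unadjusted level. With the 8 arrays alone the lowest adjusted p by limma was 0.151. For 90.8% of genes the 95% interval of the difference lay inside 1 log2 unit either side of 0, and the median distance from the difference to either end was 0.40. Genes with a higher mean in treated bladder made up 52.8% of all.

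The control arrays were of 2 kinds. Control bladder 4, 5 and 6 belong to a set of 8 arrays in the study whose deviations from the study's mean correlated with those of any other array at 0.139 or less. The highest such correlation was 0.609 in control bladder 1 and in control bladder 2, and 0.389 to 0.561 in treated bladder. These 8 are called near-mean arrays here for that low correlation alone, since the SD of their deviations, 0.293 to 0.324, was like that of control bladder 1 and 2 (0.297 and 0.301). Bladder tumor 3, 4 and 5 belong to the set too, and control bladder 4 to 6 had means like theirs for mitosis and smooth muscle genes. The mean of the mitosis genes was 5.75 to 5.81 in these controls and 5.72 to 5.81 in these tumors. For smooth muscle genes it was 6.52 to 6.66 and 6.51 to 6.56. What the near-mean arrays share was not tested, so their place as control tissue is uncertain. The comparison was therefore repeated without the near-mean arrays, in a fit of 11 arrays that leaves control bladder 1 and 2 as the only controls. In that fit 1 gene passed (0.00332% of all), with 436 at the unadjusted level. There 60.2% of genes had a higher mean in treated bladder, and 78.8% had an interval inside 1 log2 unit either side of 0, and the median distance to either end was 0.52.

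The called gene was Xist, the RNA that silences an X chromosome in female cells. Control bladder 1 and 2 read 10.76 and 10.88, treated bladder 1 to 3 read 5.98, 5.59 and 6.44, and control bladder 4 to 6 read 5.95, 6.04 and 6.02. The first pair stands far above all the rest, and treated bladder overlaps the other 3 controls. Without the near-mean arrays the difference was -4.82 ± 0.23 (SE), or 28.2-fold lower in treated bladder (3 of 3 arrays below both controls), with a limma adjusted p of 5.7e-05 and a range of 1.58e-06 to 0.0381 over its alternatives. Over all 5 controls it was -1.93, with a 95% interval from -4.01 to 0.15 and an adjusted p of 1. Leaving out only control bladder 4, 5 and 6, with all other arrays kept, Xist was called at an adjusted p of 0.0053. Genes of the Y chromosome ran the other way. Eif2s3y, a translation factor subunit, read 5.02 and 5.03 in control bladder 1 and 2 against 5.51, 6.27 and 5.36 in treated bladder. Uty and Kdm5d, histone demethylase genes, read 5.14 and 5.28, and 5.02 and 5.16, in the same pair, below all 3 treated arrays (5.32 to 6.25 and 5.34 to 5.63). In the fit without near-mean arrays a difference of sex and a difference of treatment cannot be told apart, for any gene.

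**Figure D1:**
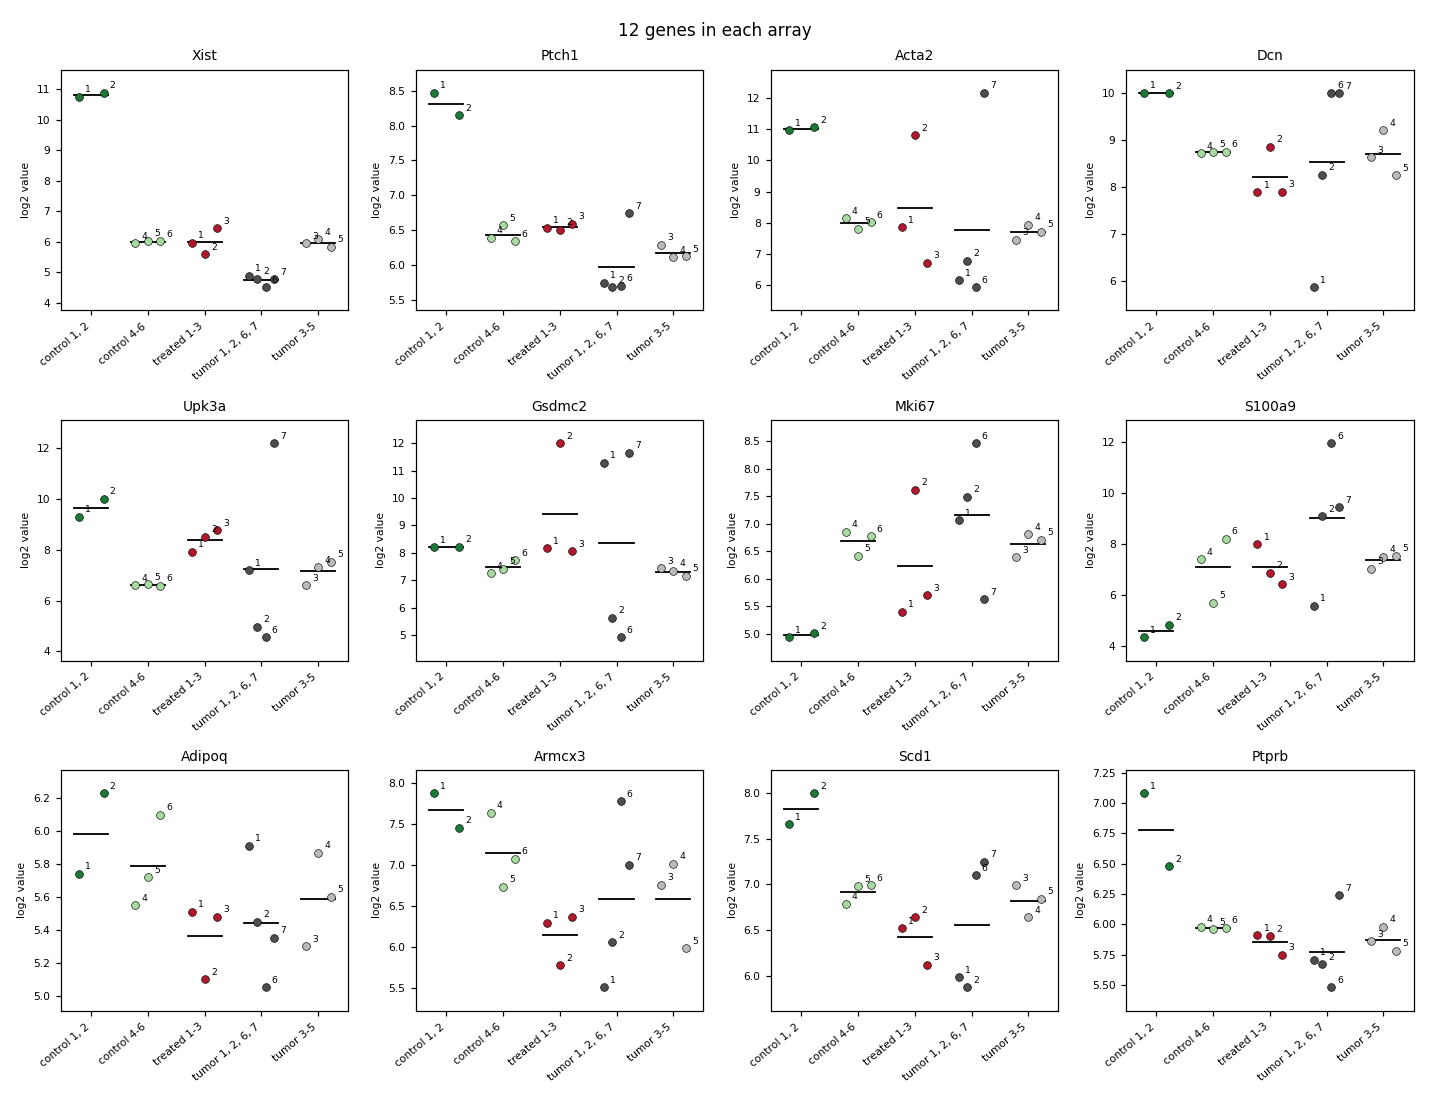
Log2 values of 12 genes in each bladder array, with controls and tumors split by whether they are near-mean arrays; points carry the array number and bars are means. Xist stands above 10 only in control 1 and 2, and the treated arrays of Adipoq, Armcx3, Scd1 and Ptprb lie below all 5 controls.

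Distances between whole arrays gave the same picture. The distance used was the root mean square of the log2 differences over all genes. Treated and control arrays were 0.429 apart on average, and arrays of the same group 0.434. The difference between these means, -0.0055, had an exact one-sided permutation p of 0.554 over the 56 possible splits, where the smallest p is 0.0179. Pairs of treated arrays were 0.378 to 0.543 apart and pairs of control arrays 0.264 to 0.465. Control bladder 1 and 2 were the closest control pair, and pairs among control bladder 4, 5 and 6 were 0.434 to 0.465 apart. Treated bladder 2 was closest to control bladder 1, at 0.37, and next to bladder tumor 7, at 0.387. Treated bladder 1 and 3 were closest to each other, at 0.378. After that, treated bladder 1 lay nearest bladder tumor 2 (0.385) and treated bladder 3 nearest control bladder 2 (0.40). Bladder tumor 6 was the farthest array from treated bladder 1 and 3 (0.688 and 0.656), and bladder tumor 1 from treated bladder 2 (0.70). Without the 3 near-mean controls the statistic was -0.00665, with an exact permutation p of 0.5 where 0.1 is the smallest possible. By this distance control bladder 4 to 6 were not especially near to bladder tumor 3 to 5. They lay 0.44 to 0.488 from those tumors, 0.413 to 0.474 from treated bladder and 0.419 to 0.45 from control bladder 1 and 2.

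**Figure D2:**
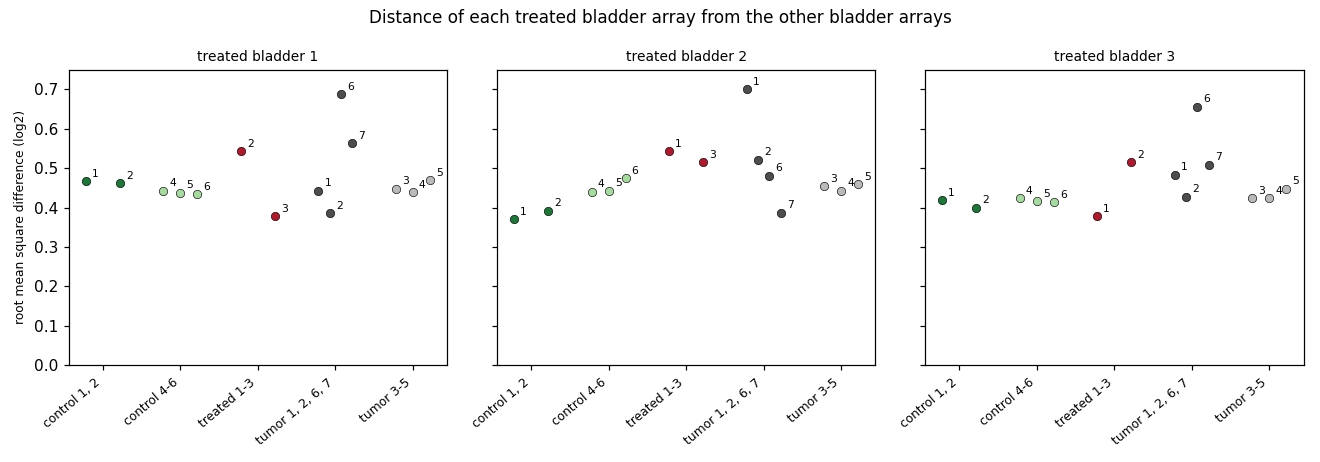
Root mean square log2 difference between each treated bladder array and every other bladder array; the vertical axis starts at 0 and points carry the array number. Distances to controls run from 0.37 to 0.474, those among treated arrays from 0.378 to 0.543 and those to tumors from 0.385 to 0.70.

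The genes with the smallest p in either fit were highest, among these 8 arrays, in control bladder 1 and 2. Ptch1, the Hedgehog receptor, read 6.53, 6.50 and 6.59 in treated bladder, 8.47 and 8.15 in control bladder 1 and 2, and 6.39, 6.57 and 6.34 in control bladder 4 to 6. Its treated arrays lie below the first pair and among the other 3. The difference without the near-mean arrays was -1.77 (95% interval -2.43 to -1.11, unadjusted p 0.000136 and adjusted p 1 by limma), or 3.41-fold lower in 3 of 3 arrays. Over all controls it was -0.65. The same order held for Avpr1a, a vasopressin receptor, at 6.40, 4.34 and 5.57 in treated bladder against 8.03 and 8.20 in the pair and 4.72 to 5.94 in the near-mean controls. Dbp and Per3, genes of the circadian clock, read 5.82 to 6.28 and 5.30 to 5.44 in treated bladder, against 7.34 and 6.92, and 6.25 and 5.78, in the pair. Ecm2 and Abi3bp, matrix proteins, Tek, the angiopoietin receptor, Cachd1 and Zfp991 made up the rest. For these 5 the differences without near-mean arrays ran from -1.58 (Zfp991) to -0.58 (Cachd1), all with a limma adjusted p of 1 and with 3 of 3 treated arrays below both controls. Over all controls they ran from -0.98 (Zfp991) to -0.24 (Cachd1), also at 1. Zfp991 was also above the treated arrays (5.12 to 5.42) in control bladder 5 and 6, at 6.25 and 6.20, but not in control bladder 4, at 5.22. Its 95% interval over all controls, -1.69 to -0.26, excludes 0.

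A set of 216 genes (0.717% of all) read higher in each treated array than in each of the 5 controls, and 144 genes (0.478%) read lower in each. Against control bladder 1 and 2 alone these shares were 9.98% (3009 genes) and 7.59% (2289 genes). If the arrays were exchangeable, a share of 0.0179 of genes would not overlap in each direction against all 5 controls. Against the pair alone that share would be 0.1. The observed shares do not exceed these, so a gene without overlap is a description. None of these genes other than Xist passed the test in either fit. The 10 largest differences in each direction among named genes were examined one by one, leaving out predicted, small RNA and chemosensory genes.

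On the low side, Armcx3, which codes for a mitochondrial outer membrane protein, read 6.30, 5.78 and 6.37 in treated bladder and 7.88, 7.46, 7.64, 6.74 and 7.08 in control bladder 1, 2, 4, 5 and 6. The groups do not overlap, and their nearest arrays are 0.37 apart. Its difference was -1.21 (95% interval -2.12 to -0.30, unadjusted p 0.0117 and adjusted p 1 by limma), a mean 2.32-fold lower. Scd1, the stearoyl-CoA desaturase that makes monounsaturated fatty acids, read 6.52, 6.64 and 6.12 against 7.66, 8.0, 6.79, 6.98 and 6.99. Here the lowest control, number 4, lies 0.15 above the highest treated array. The Scd1 difference was -0.86 (interval -1.60 to -0.11, adjusted p 1 by limma) over all controls and -1.41 without the near-mean arrays.

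Several transcription factors stood among the low genes. Gata6, a zinc finger factor, read 6.58, 6.42 and 6.38 in treated bladder and 7.53, 7.07, 7.42, 6.90 and 7.40 in control. Nfib, a nuclear factor I gene, read 6.28, 6.94 and 6.48 against 7.88, 7.51, 7.28, 7.13 and 6.95. Only 0.01 separates the highest treated from the lowest control array of Nfib. Maf, a leucine zipper factor, was at 6.45 to 6.71 against 7.0 to 7.66, and Tbx20, a T-box factor, at 4.84 to 5.01 against 5.23 to 6.29. Their differences over all controls were -0.80 (Gata6), -0.78 (Nfib), -0.71 (Tbx20) and -0.69 (Maf), with intervals that exclude 0 for Nfib and Tbx20. Every one had an adjusted p of 1. Trf, the iron carrier transferrin, was at 7.75 to 7.96 against 8.22 to 8.83, and Cyp2e1, a cytochrome P450, at 5.28 to 5.56 against 5.89 to 6.28. Phpt1, a histidine phosphatase, was at 6.19 to 6.49 against 6.74 to 7.05, and an immunoglobulin heavy chain variable segment at 4.97 to 5.31 against 5.54 to 7.0, where control bladder 5 alone reads above 5.93.

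The high side held bright genes. Rpl41, a ribosomal protein, read 15.35, 15.42 and 15.36 in treated bladder, 15.07 and 15.06 in control bladder 1 and 2, and 13.95, 14.03 and 13.99 in control bladder 4 to 6. The treated metastasis, from the same treatment, read 15.43 for this gene. COX1, a mitochondrially encoded subunit of cytochrome oxidase, was at 15.69 to 15.74 against 15.43, 15.43, 14.66, 14.91 and 14.67, and at 15.75 in the treated metastasis. Eef1a1, a translation elongation factor, was at 12.60 to 12.74 against 12.58, 12.58, 11.83, 11.67 and 11.56, with 12.75 in the treated metastasis.

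Such a step ran through many bright rows of the table. Among the 317 rows with a mean of at least 14, all 4 treated arrays, the treated metastasis included, lay above all 8 untreated arrays that are not near-mean in 70 rows (22.1%) and below them in 0. Among the 65639 dimmer rows they lay above in 34 (0.0518%). Of the 54 genes with a mean of at least 14, 13 were among the 216 that stood higher in treated bladder than in all controls (all genes, 0.717%). Among the 144 that stood lower there were 0 of them (all genes, 0.478%). Treatment and whatever else the 4 arrays share cannot be told apart in these rows, and the part of this step in the values of Rpl41, COX1 and Eef1a1 was not tested.

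**Figure D3:**
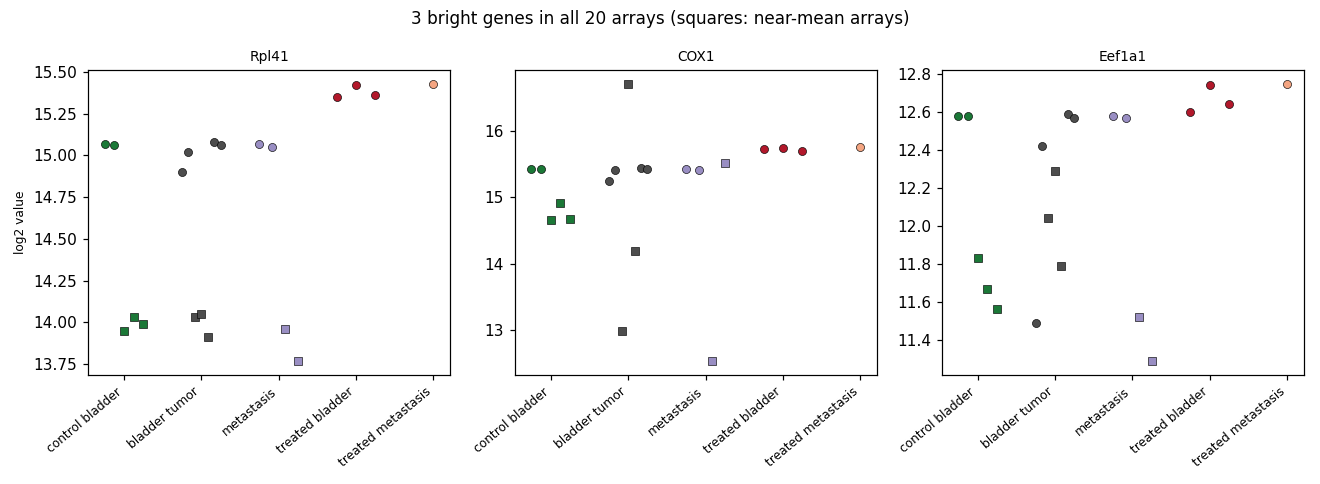
Log2 values of Rpl41, COX1 and Eef1a1 in all 20 arrays, with near-mean arrays as squares. For Rpl41 the 4 treated arrays read 15.35 to 15.43 and the other arrays that are not near-mean 14.90 to 15.08.

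The other high genes were less bright. Csprs read 6.96, 6.56 and 6.86 in treated bladder against 5.79, 5.57, 6.37, 6.16 and 6.21 in control, a difference of 0.77 (95% interval -0.14 to 1.69). Ifit1bl1, related to interferon-induced Ifit genes, read 5.30, 5.02 and 5.05 against 3.87 to 4.73, and Orly 6.20, 5.98 and 6.14 against 5.19 to 5.88. Their intervals, 0.03 to 1.40 and 0.12 to 1.04, exclude 0, with adjusted p of 1 by limma. Smr3a, a salivary protein gene, Igkv4-90, an immunoglobulin light chain segment, Sprr2g, a cornified envelope protein, and Dio2, the deiodinase that activates thyroid hormone, read higher by 0.39 to 0.49. For these 4 genes every interval includes 0.

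Low ends of the arrays differed as well. The mean of 1561 chemosensory receptor genes, which are silent in most tissues, was 5.11, 4.78 and 5.16 in treated bladder 1, 2 and 3 and 4.81 to 4.91 in control. Treated bladder 1 and 3 thus read above, and treated bladder 2 below, all 5 controls for these genes. Of them 77.5% had a higher treated mean, and the part of this shift in the differences of dim genes was not tested. The span of all values, with the extremes at each end left out, differed too. It was 6.09, 6.77 and 5.86 in treated bladder 1, 2 and 3 and 6.06 to 6.43 in control. The part of this wider span in the high readings of treated bladder 2, for any gene or list, was not tested.

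**Figure D4:**
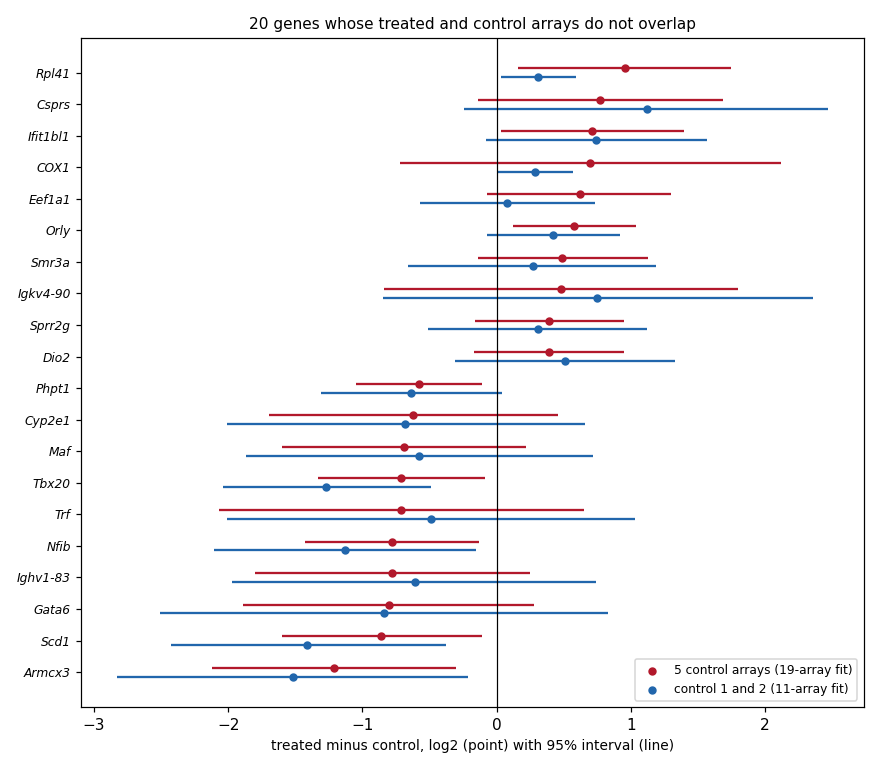
Treated minus control difference (point) with its 95% interval (line) for the 10 highest and 10 lowest named genes whose treated and control arrays do not overlap, from the 19-array fit and the fit without near-mean arrays. Armcx3 has the lowest difference of the 19-array fit, -1.21 with an interval that excludes 0, and the interval of Trf (-2.07 to 0.65) includes it.

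Umbrella cell genes of the urothelium were present in treated bladder. The 22 measured luminal genes had a mean of 6.23, 6.95 and 6.75 in treated bladder 1 to 3, 6.85 and 7.10 in control bladder 1 and 2, with 6.06 to 6.18 in control bladder 4 to 6. Treated bladder 2 lies between the first pair, and all 3 treated arrays lie above the near-mean controls. Over all controls 21 of 22 members had a higher treated mean, with a median difference of 0.14, or -0.07 with array weights (all genes, 52.8% and 0.01). Without the near-mean arrays 9 of 22 did, with a median of -0.05 (all genes, 60.2% and 0.04), and the median was -0.30 without treated bladder 2. None passed in either fit.

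Upk3a, a plaque protein, read 7.93, 8.51 and 8.77 in treated bladder, 9.30 and 10.02 in control bladder 1 and 2, with 6.58 to 6.64 in control bladder 4 to 6. All 3 treated arrays lie between the 2 kinds of control, whereas for Upk1b treated bladder 1 lies below all 5 controls. The Upk3a difference was 0.57 (95% interval -2.10 to 3.25) over all controls and -1.26 (-5.25 to 2.73) without the near-mean ones, so its sign depends on which controls are used. Krt19, a keratin of simple epithelia, read 6.29, 7.60 and 6.75 against 6.48, 6.40, 5.96, 6.04 and 6.57, and Psca, a surface antigen of the urothelium, 6.60, 8.44 and 8.0 against 7.99, 7.86, 6.51, 7.23 and 6.58. Both groups overlap for these genes, with differences of 0.59 and 0.45.

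Basal genes were led by Krt5, the basal keratin, at 6.46, 8.87 and 7.76 in treated bladder against 8.08, 8.16, 6.70, 6.58 and 6.76 in control. Treated bladder 2 is the highest and treated bladder 1 the lowest of the 8 arrays. Of 14 basal genes 11 had a higher treated mean over all controls (median 0.06), and 2 without treated bladder 2 (median -0.10), so the direction rests on that array. Dsg3, a desmosomal cadherin, and Krt15, another basal keratin, differed by 0.13 and 0.11.

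Treated bladder 2, whose values had the widest span of the 8 arrays, stood apart for the cornified and gasdermin genes. Gsdmc2, a gasdermin of differentiated epithelium, read 8.17, 12.00 and 8.06 in treated bladder 1 to 3, against 8.20, 8.22, 7.26, 7.42 and 7.73 in control. Only treated bladder 2 exceeds the controls by more than 1. Bladder tumor 1 and 7 were at 11.29 and 11.64, and the other 5 tumors at 4.92 to 7.44. The difference of 1.64 had a 95% interval from -1.05 to 4.34. Its neighbor Gsdmc3 was also highest in treated bladder 2, at 7.51, 10.31 and 6.61 against 6.15 to 7.20, and there treated bladder 1 exceeds all controls too. In the list of 19 such genes the means were 5.57, 6.33 and 5.56 in treated and 5.34 to 5.67 in control bladder, and 17 had a higher treated mean (median 0.17, or 0.09 without treated bladder 2). Sprr2g was the 1 member whose groups did not overlap, at 4.42, 4.43 and 4.03 against 3.81 to 4.01 (all genes, 0.717% higher without overlap).

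Smooth muscle genes split the treated arrays too. The mean of 21 genes was 6.60, 7.87 and 6.41 in treated bladder 1, 2 and 3, 8.08 and 8.07 in control bladder 1 and 2, with 6.52 to 6.66 in control bladder 4 to 6. Treated bladder 2 was close to the first pair and the other 2 treated arrays to the near-mean controls. Of the 21 genes, 19 had a lower treated mean over all controls (median -0.18), and 21 without the near-mean arrays (median -1.03). In the second case 12 of 21 had all treated arrays below both controls, where 7.59% of all genes did, and none passed. Without treated bladder 3 the median over all controls was 0.04, and its sign differed from the main one in 2 of 19 alternatives. Without the near-mean arrays it stayed between -1.27 and -0.75 over 14 alternatives.

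Acta2, smooth muscle actin, read 7.86, 10.81 and 6.71 in treated bladder, 10.97 and 11.06 in control bladder 1 and 2, with 7.80 to 8.14 in control bladder 4 to 6. The range of the treated arrays covers that of the near-mean controls. Its difference was -0.74 (95% interval -3.25 to 1.78) over all controls and -2.55 (-6.42 to 1.32) without the near-mean ones. Tagln, the actin-binding protein transgelin, read 7.12, 9.50 and 7.35 against 9.86 and 9.62 in the pair, and Pcp4, a calmodulin regulator, 7.48, 8.17 and 7.44 against 9.50 and 9.96. For Pcp4 the near-mean controls read 6.99 to 8.09, on both sides of treated bladder 1 and 3.

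Fibroblast and matrix genes were lower in most cases. Dcn, the proteoglycan decorin, read 7.89, 8.86 and 7.90 in treated bladder, 10.01 and 10 in control bladder 1 and 2, with 8.72 to 8.76 in control bladder 4 to 6. Treated bladder 1 and 3 lie below all controls, and treated bladder 2 just above the near-mean ones. The difference was -1.03 (95% interval -2.52 to 0.45), or 2.05-fold lower. Lum, lumican, read 5.74, 8.78 and 7.82 against 9.66, 9.19 and 7.56 to 8.01. Col1a2, a chain of type I collagen, did not overlap, at 6.32, 6.51 and 6.41 against 6.64 to 7.05. Of 21 genes 19 had a lower treated mean over all controls (median -0.20) and 18 without the near-mean arrays (median -0.26), and the median stayed below 0 in the 19 alternatives of the first fit and the 14 of the second, from -0.46 to -0.06. None passed.

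Most vessel genes read lower than in control bladder 1 and 2. Ptprb, the endothelial phosphatase that opposes Tek signaling, read 5.91, 5.90 and 5.75 in treated bladder against 7.08, 6.48, 5.98, 5.96 and 5.97. Its groups do not overlap, by 0.05. Tek read 5.92, 5.91 and 5.93 against 6.77 and 6.43 in the pair and 5.83 to 6.21 in the near-mean controls. Plvap, a protein of fenestrated vessels, went the other way, at 5.30, 5.77 and 5.38 against 5.24 and 5.09 in the pair, and overlapped the near-mean controls (5.14 to 5.39). In all, 10 of 14 endothelial genes had a lower treated mean over all controls (median -0.05), and 13 without the near-mean arrays (median -0.28).

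Of 12 fat cell genes 2 had all treated arrays below all 5 controls, where 0.478% of all genes did. Adipoq, the adipocyte hormone adiponectin, read 5.51, 5.10 and 5.48 in treated bladder against 5.74, 6.23, 5.55, 5.72 and 6.10. Lpl, lipoprotein lipase, read 5.42, 5.46 and 5.28 against 5.74, 5.83, 5.93, 5.95 and 6.00, a gap of 0.28 between the groups. Their differences were -0.51 and -0.50, with adjusted p of 1 by limma. Car3, a carbonic anhydrase abundant in fat and muscle, read 6.87, 5.06 and 7.51 against 6.22 to 8.11, with overlap. Of 12 adipocyte genes 9 had a lower treated mean (median -0.09), which became 0.09, with 7 higher, without treated bladder 2.

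**Figure D5:**
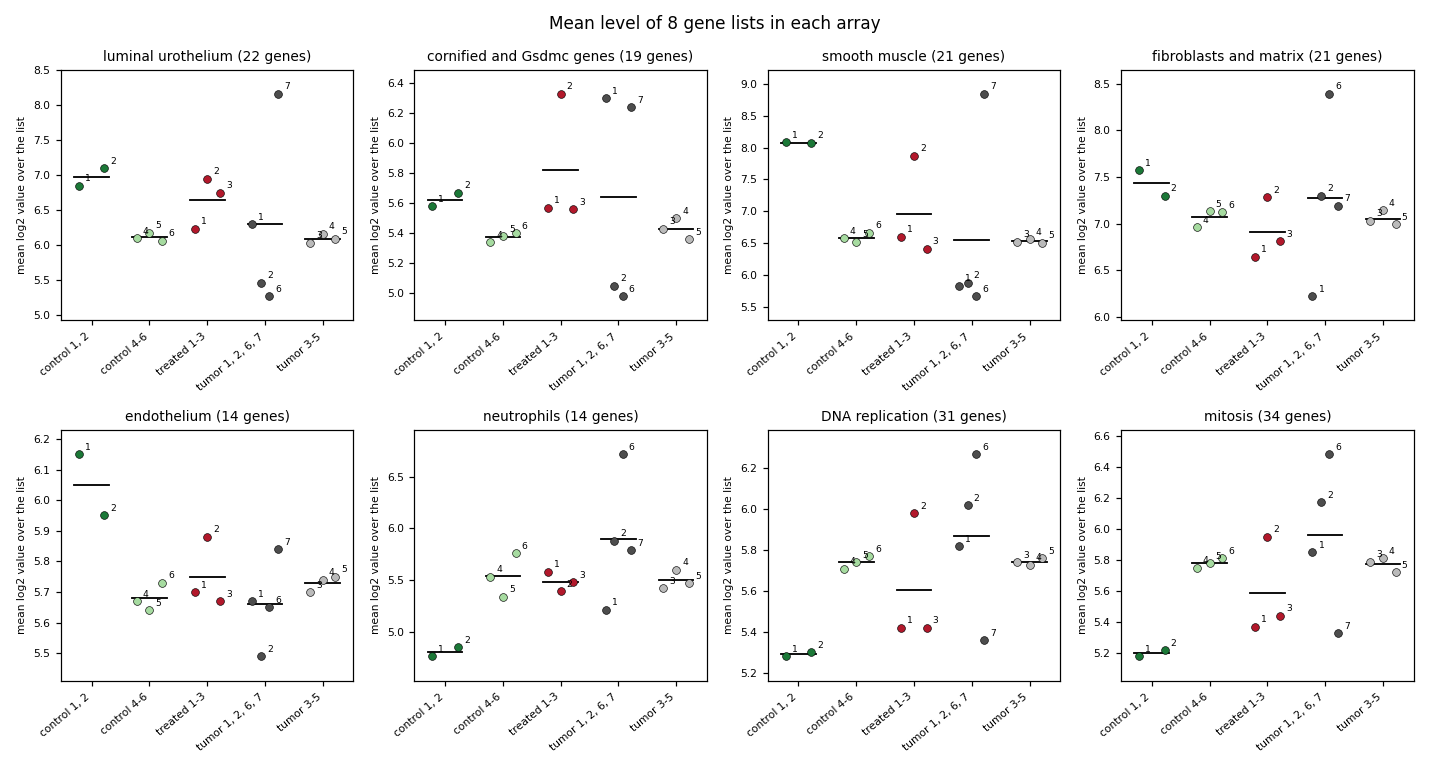
Mean log2 level of 8 gene lists in each bladder array, with array numbers beside the points and bars for means of the arrays in each column. Treated bladder 2 stands apart from treated bladder 1 and 3 for smooth muscle (7.87 against 6.60 and 6.41) and for mitosis (5.95 against 5.37 and 5.44).

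Genes of mitosis were above control bladder 1 and 2, and above the near-mean controls only in treated bladder 2. Those controls read like near-mean bladder tumor 3 to 5 (5.72 to 5.81). The mean of 34 genes was 5.37, 5.95 and 5.44 in treated bladder 1 to 3, 5.18 and 5.22 in control bladder 1 and 2, with 5.75 to 5.81 in control bladder 4 to 6. Treated bladder 1 and 3 lie between the 2 kinds of control, and treated bladder 2 above both. Against the pair, 34 of 34 had a higher treated mean (median 0.34; all genes, 60.2% and 0.04). There 21 of 34 had all treated arrays above both controls, where 9.98% of all genes did. Without treated bladder 2 the count was still 34 and the median 0.20. Over all controls 23 of 34 were higher with a median of 0.05, and 9 of 34 with a median of -0.10 without treated bladder 2. None passed in either fit.

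Mki67, the proliferation antigen Ki-67, read 5.40, 7.61 and 5.70 in treated bladder, 4.94 and 5.01 in control bladder 1 and 2, with 6.42 to 6.85 in control bladder 4 to 6. All treated arrays exceed the pair, and only treated bladder 2 exceeds the near-mean controls. Its difference was 0.24 (95% interval -1.24 to 1.72) over all controls and 1.26 (-0.84 to 3.36) without the near-mean ones. Hmmr, a spindle-associated hyaluronan receptor, read 5.11, 5.44 and 4.80 against 4.82 and 4.80 in the pair, and Ttk, the spindle checkpoint kinase, 4.90, 5.30 and 4.94 against 4.83 and 4.84. The near-mean controls were above all treated arrays for Ttk, at 5.38 to 5.65.

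Promoters were read because 34 of 34 of these genes had a higher treated mean against the pair. The CHR element, the letters TTTGAA, is bound by the complexes through which Rb relatives hold back mitosis genes. It was sought on both strands in 300 bases around the first listed start of each gene, from RefSeq on GRCm38.p6. It was found in 21 of the 28 mitosis genes matched (75%), in 2 of 17 smooth muscle genes (11.8%) and in 18.1% of all 27025 promoters. The CArG box, the binding site of serum response factor in muscle genes, was found in 1 of the 17 smooth muscle promoters, that of Myl9, in 0 of 28 mitosis promoters and in 1.57% of all. A match is a description of these letters and not a measured site. Near matches were not counted, so a promoter without a match may still hold a variant of either element. The Acta2 promoter, counted as without a CArG box, holds stretches close to it. The 3 named mitosis genes and Myl9 are shown 5′ to 3′ on the strand of the gene. Capitals mark the CHR element, or its reverse complement TTCAAA in Ttk, and the CArG box in Myl9.
Mki67 (chr7:135716330-135716629, minus strand): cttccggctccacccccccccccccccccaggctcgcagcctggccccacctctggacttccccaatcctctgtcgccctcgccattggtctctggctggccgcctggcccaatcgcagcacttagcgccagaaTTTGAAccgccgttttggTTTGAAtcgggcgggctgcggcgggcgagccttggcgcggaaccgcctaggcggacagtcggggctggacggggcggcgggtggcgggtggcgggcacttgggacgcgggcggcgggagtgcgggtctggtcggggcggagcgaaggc
Hmmr (chr11:40733388-40733687, minus strand): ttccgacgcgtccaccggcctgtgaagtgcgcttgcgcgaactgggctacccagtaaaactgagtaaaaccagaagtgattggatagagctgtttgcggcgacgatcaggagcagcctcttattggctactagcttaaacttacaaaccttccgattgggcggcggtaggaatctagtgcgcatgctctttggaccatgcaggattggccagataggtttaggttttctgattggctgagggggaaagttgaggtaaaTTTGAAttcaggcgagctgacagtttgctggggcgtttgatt
Ttk (chr9:83834439-83834738, plus strand): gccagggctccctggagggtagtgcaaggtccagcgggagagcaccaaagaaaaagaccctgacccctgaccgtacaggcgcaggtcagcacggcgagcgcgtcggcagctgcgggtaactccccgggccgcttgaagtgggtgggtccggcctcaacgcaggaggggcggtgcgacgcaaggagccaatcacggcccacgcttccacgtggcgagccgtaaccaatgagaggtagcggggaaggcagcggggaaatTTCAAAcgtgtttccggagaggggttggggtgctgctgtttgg
Myl9 (chr2:156775214-156775513, plus strand): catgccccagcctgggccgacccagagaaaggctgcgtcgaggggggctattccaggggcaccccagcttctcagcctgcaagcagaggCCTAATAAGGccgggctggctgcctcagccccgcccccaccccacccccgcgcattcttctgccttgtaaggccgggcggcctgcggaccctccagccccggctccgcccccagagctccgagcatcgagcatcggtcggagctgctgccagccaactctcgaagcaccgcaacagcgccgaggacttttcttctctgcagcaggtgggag
The printed stretch of Mki67 holds the element at 2 places, and those of Hmmr and Ttk hold it at 1 place each, starting at base 259 and base 258. Myl9, the regulatory light chain of smooth muscle myosin, read 6.99, 8.06 and 6.52 in treated bladder, 8.58 and 8.50 in control bladder 1 and 2, with 6.07 to 6.83 in control bladder 4 to 6. It was chosen for its promoter after values were seen. Its treated arrays lie below the first pair, and treated bladder 1 and 2 lie above the near-mean controls.

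DNA replication genes shared this order. The 31 genes had means of 5.42, 5.98 and 5.42 in treated bladder against 5.28 and 5.30 in the pair and 5.71 to 5.77 in the near-mean controls. Against the pair 30 of 31 had a higher treated mean (median 0.32; all genes, 60.2%) and 23 had all treated arrays above both controls (all genes, 9.98%). Over all controls 21 of 31 did, with a median of 0.03, and 6 without treated bladder 2 (median -0.12). Ccne1, cyclin E1, read 5.27, 6.23 and 5.19 against 5.10 to 5.53, and E2f8, a repressor of the E2F family, 5.36, 6.12 and 5.68 against 5.28 to 5.79. Fen1, the flap endonuclease, was the member below the pair, at 5.16 to 5.24 against 5.28 and 5.26.

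None of the engineered and targeted genes measured passed the test. Rb1 was at 5.98, 6.17 and 5.87 in treated bladder and 5.90 to 6.40 in control, and Rbl1, which codes for p107, at 6.03, 7.01 and 6.19 against 6.28 to 6.83. Rbl2, the third member of the family, was at 5.99 to 6.32 against 6.11 to 6.55. The 3 differences were -0.17 (Rb1), -0.10 (Rbl1) and -0.19 (Rbl2), and their median stayed below 0 in 19 alternatives. The place of the probes relative to the deletions is unknown, and the values are therefore no test of the alleles. Ehmt2, which codes for G9a, read 6.65, 6.98 and 6.74 against 6.66 to 6.98, a difference of -0.01 with a 95% interval from -0.25 to 0.23. Dnmt1, the maintenance DNA methyltransferase, read 6.73, 7.81 and 6.78 against 6.61 to 7.32, a difference of 0.07 (-0.66 to 0.80). Dnmt3a and Dnmt3b, which set new methyl marks, differed by -0.05 (-0.27 to 0.17) and 0.03 (-0.20 to 0.26). Uhrf1, which guides Dnmt1 to DNA, differed by 0.08 (-0.28 to 0.44). For 10 genes of this network, Dnmt3l (0.16) and Ehmt1 (-0.08) included, the median difference was 0.01.

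Genes that lose expression when CpG islands are methylated were examined for a response to the inhibitor. Of 19 germline genes 13 had a higher treated mean, with a median of 0.03. Zfp42, a pluripotency factor, read 6.76, 6.57 and 6.95 in treated bladder and 6.43 to 6.78 in control, and Tex19.1 and Rpl10l differed by -0.17 and 0.17. All 3 overlap. Without treated bladder 2, 19 of 19 were higher with a median of 0.14, in arrays whose chemosensory receptors also read high. Imprinted genes had a median of -0.07 over 17 members. Peg10, a retrotransposon-derived gene expressed from the paternal copy, was at 4.80, 6.95 and 4.80 against 4.71 to 5.16, so treated bladder 2 alone was high. Ndn, necdin, read 6.73, 7.02 and 5.77 against 8.18 and 7.70 in the pair and 5.87 to 6.75 in the near-mean controls, and Impact 6.55 to 7.18 against 6.90 to 7.60.

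Responses to DNA damage were sought through p53 targets. Cdkn1a, the cell cycle inhibitor p21, read 6.30, 7.35 and 6.36 in treated bladder against 6.11, 6.07, 6.14, 6.29 and 6.73 in control. All treated arrays exceed 4 of the controls and only treated bladder 2 exceeds control bladder 6. The difference of 0.40 had a 95% interval from -0.17 to 0.97. Ccng1, cyclin G1, and Plk2, a polo-like kinase, differed by -0.37 and -0.31. Of 22 p53 targets 9 had a higher treated mean (median -0.01). Genes of crosslink repair split evenly, 12 of 24 (median -0.01), with Rev3l, a translesion polymerase, at 5.79 to 6.22 against 5.94 to 6.40, Xpa at -0.13 and Fanci at 0.10. Among 20 genes of platinum handling, the glutathione transferases Gstt1, Gsta4 and Gstm2 differed by -0.36, 0.33 and -0.22, and the list had a median of 0.02.

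The unfolded protein response list had 13 of 16 genes lower in treated bladder (median -0.15), with Herpud1, a protein of ER-associated degradation, at 5.99, 6.40 and 6.51 against 6.34 to 7.0, and Dnajb9 and Calr, both of the ER, at -0.32 and -0.29. Its median was -0.32 without treated bladder 2 and stayed below 0 in all 19 alternatives over all controls. Without the near-mean arrays it was -0.05, with 10 of 16 lower, and changed sign in 4 of 14 alternatives. Hypoxia genes (median 0.02 over 18) included P4ha1, a collagen hydroxylase, at -0.26, Tpi1, a glycolytic enzyme, at 0.18 and Vegfa, a vessel growth factor, at -0.14. Immediate early genes had a median of 0.00 over 15, with Zfp36 at -0.29, Ier3 at 0.24 and Myc at -0.24. Regulators of epithelial-mesenchymal transition were lower in 9 of 11 cases (median -0.12). Tgfb2, a growth factor, did not overlap, at 5.48 to 5.59 against 5.63 to 5.97, and Twist2 and Cdh2 differed by -0.28 and -0.21.

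Neutrophil genes read higher in treated bladder than in control bladder 1 and 2. The mean of 14 genes was 5.58, 5.39 and 5.48 in treated bladder, 4.76 and 4.85 in control bladder 1 and 2, with 5.34 to 5.76 in control bladder 4 to 6. Against the pair 9 of 14 had all treated arrays above both controls (all genes, 9.98%) and 13 a higher mean (median 0.44; all genes, 60.2%). Over all controls 11 of 14 had a higher mean (median 0.18), and the median stayed above 0 in all 19 alternatives. S100a9, a calcium-binding alarmin, read 8.0, 6.88 and 6.43 in treated bladder, 4.35 and 4.85 in the pair, and 7.41, 5.70 and 8.21 in control bladder 4 to 6. Its partner S100a8 read 6.13, 7.06 and 5.37 against 3.50 and 3.94, and 6.58, 5.75 and 6.87. Both genes overlap the near-mean controls. The differences were 1.0 (95% interval -1.25 to 3.25) and 0.86 (-1.74 to 3.45), and Ltf, lactoferrin, was at 0.31.

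Macrophage genes followed the choice of controls. Lyz2, myeloid lysozyme, read 8.94, 8.56 and 7.65 in treated bladder against 8.30 and 7.84 in the pair and 9.18 to 9.92 in the near-mean controls. C1qb, a complement subunit, read 6.18, 5.97 and 5.06 against 4.82 and 4.51, and 6.41 to 7.46. For C1qb treated bladder lies wholly between the 2 kinds of control. Lyz1, a related lysozyme, overlapped at 6.75 to 7.31 against 6.56 to 8.12. Of 20 genes 19 had a higher treated mean against the pair (median 0.33; 12 had all treated arrays above both controls, against 9.98% of all genes), and 7 over all controls (median -0.05).

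Lymphocyte genes were near the low end of the scale. Cd8b1, a chain of the CD8 coreceptor, read 5.19, 5.05 and 5.26 in treated bladder against 4.91, 4.89, 4.92, 4.92 and 4.82, without overlap. The difference of 0.27 had a 95% interval from -0.15 to 0.69 and a limma adjusted p of 1. Cd28 and Cd5, a costimulator and a T cell surface protein, differed by 0.11 and 0.10, and 11 of 14 T cell genes had a higher treated mean (median 0.04). In the cytotoxic list, Gzmb, granzyme B, read 5.39, 5.17 and 5.75 against 4.57 to 5.87, Ifng 4.22 to 4.68 against 4.44 to 5.32, and Ccl5 5.05 to 5.29 against 5.03 to 6.08. Its median was 0.05, with 9 of 14 higher. For checkpoints (median 0.04 over 11), Btla, Pdcd1 and Pdcd1lg2 differed by -0.17, 0.14 and 0.13. B and plasma cell genes had a median of 0.02, and Ighm, the IgM heavy chain, read 6.90, 5.90 and 4.94 against 5.86 to 6.45. Jchain, which joins IgM and IgA units, read 6.83, 5.78 and 4.93 against 4.95 to 6.33, so treated bladder 1 was high and treated bladder 3 low for both. Fcrla was at -0.08, and among 203 immunoglobulin segments 122 were higher (median 0.04), with Igkv4-91 at 3.43 to 3.91 against 3.41 to 6.11. Mast cell genes had a median of 0.02, with Tpsab1, a tryptase, at 0.24, Cpa3 at -0.11 and Tpsb2 at 0.09.

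Interferon genes were high in treated bladder 2. Oas1a, an antiviral oligoadenylate synthetase, read 5.62, 7.31 and 5.74 against 5.35 to 6.14 in control, and Rtp4, an interferon-induced chaperone, 5.32, 6.33 and 5.46 against 4.98 to 5.51. Only that array exceeds all controls for either gene. Cxcl9, a T cell attractant, read 5.57, 6.07 and 5.48 against 4.83 to 5.70. The list means were 5.42, 6.14 and 5.53 against 5.49 to 5.75, with 18 of 31 members higher and a median of 0.05, or 8 of 31 and -0.12 without treated bladder 2. B2m, the light chain of MHC class I, read 10.22, 15.35 and 11.42 in treated bladder, 13.90 and 13.98 in control bladder 1 and 2, with 11.58 to 11.77 in control bladder 4 to 6. Treated bladder 2 is the highest and treated bladder 1 the lowest of the 8 arrays. H2-Ab1, of MHC class II, and Tapbp, tapasin, differed by -0.14 and -0.13, and the antigen presentation list by a median of -0.04 over 15 genes.

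Among markers of other tissues, mesothelial genes had the lowest median of the lists. They were lower in 6 of 6 cases over all controls (median -0.32), and in 3 of 6 without the near-mean arrays (median 0.00). Muc16, a mesothelial mucin, did not overlap, at 4.55 to 4.75 against 4.78 to 5.10, Upk3b was at -0.56 and Lrrn4 at -0.38. Medians were -0.02 for skeletal muscle (Ckm -0.27, Tnnt3 -0.18, Myh2 -0.07), 0.00 for nerve (Gap43 -0.26, Snap25 0.14, Mbp -0.14) and 0.07 for male accessory glands (Defb50 -0.17, Svs3a 0.16, Spink1 0.15). They were 0.04 for kidney, 0.02 for liver, 0.07 for lung and -0.01 for the 2 erythroid genes measured, Alas2 and Slc4a1. The kidney transporter Slc34a1 did not overlap, at 4.91 to 4.99 against 4.81 to 4.85, with Kap at 0.19 and Slc12a1 at 0.09. Ahsg and Alb, liver plasma proteins, read 5.35 to 5.91 and 4.97 to 5.51 in treated bladder against 5.31 to 6.79 and 5.20 to 6.16, and Apoa1 was at 0.16. The lung genes Scgb1a1, Lamp3 and Sftpb were at 0.32, 0.26 and 0.08, and the histone genes Hist1h2aj and Hist1h4b at -0.25 and 0.05.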

How the data were processed

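RNA came from fixed, embedded tissue (an FFPE kit), and 12 ng of it was labelled for whole-transcript arrays, as the labels' protocols state. The deposited values are log2 levels that the authors made by RMA with the program Affymetrix Expression Console (named in the submitters' processing notes). Versions, and any batch step, were not given in the sources used here. Because RMA puts arrays on a common scale, a change in total RNA cannot be read from the values. The deposited array medians still ran from 5.07 to 5.42. Values ran from 2.29 to 22.0, and 284 of 65956 rows exceed 16, the limit of a 16-bit scanner, so a further step is open for such rows. The number of arrays limits the precision.

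Of the rows, 30604 had 1 gene symbol in the platform annotation, 2146 had several, 33206 were not listed, and the brightest row was kept for each of 30142 genes. limma 3.58.1 (R 4.3.3) fitted group means to the 19 arrays of the replicated groups, or to 11 without near-mean arrays (those whose deviations correlate with no other array above 0.2). Two-sided p-values were adjusted by Benjamini-Hochberg over all genes. Distances were tested by exact permutation over samples with numpy 2.4.6. The fit was tested on simulated data.

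Named genes were those called, the 10 with the smallest p over both fits, up to 3 of each list (called, then not overlapping, then of largest difference), the engineered, targeted and sex-linked genes, and the 10 highest and 10 lowest that do not overlap. Predicted, small RNA and chemosensory genes, 12850 in all, were left out when choosing by call, by p and by lack of overlap. The members, lists and near-mean arrays were chosen with earlier results of these data known. The genes withheld from the files are not reported here. Other settings tried were the 2 groups alone, array weights, another prior, 2 further normalizations, gene filters, row summaries, a 2-fold threshold, a replicate block, near-mean membership as a covariate and leaving out arrays. Ddx3y was not measured.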

Additional observations from a re-analysis of the deposited data

Results flagged for a closer look

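In each case here 1 control array stood apart from the other 4, by a gap over 0.71 of the range of the 5 controls. Of 191 genes and list means examined in this way 7 did so, and chance alone gives about 1 in 20. Control bladder 6 read 5.86 for Snap25, a synaptic protein (the others 5.35 to 5.44), 5.15 for Fcrla, a B cell protein (4.89 to 4.95), and 4.74 for Twist2, a mesenchymal factor (5.21 to 5.28). It also had the highest mean of the cytotoxic genes, 5.47 against 5.14 to 5.22. Control bladder 5 read 7.0 for an immunoglobulin heavy chain variable segment (5.54 to 5.93) and had a kidney list mean of 4.87 (4.71 to 4.74). Control bladder 1 had the lowest chemosensory mean, 4.81 against 4.89 to 4.91. Of these, that segment is among the genes whose treated and control arrays do not overlap, and without control bladder 5 its treated arrays (4.97 to 5.31) still lie below the other controls.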

How the results depend on the processing

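The count of genes called over all controls was 0 in every alternative run but 1: it was 1, Xist, when only control bladder 4, 5 and 6 were left out. Leaving out each treated or control array gave 0 in every fit over all controls and 1 in every fit without near-mean arrays, where the count was 1 under each alternative. With the replicate number as a block the counts were 0 and 1, and the share of intervals inside 1 log2 unit was 86.8% over all controls; control and treated bladder share only the numbers 1 and 2, the deviations of same-numbered arrays correlated at -0.202 and 0.119, and the numbers were not taken as pairs. That share ran from 82.4 to 89.4% with 1 array left out. The exact permutation p of the distance statistic was 0.381 or more in each alternative. The alternative without control bladder 4, 5 and 6 could not reach 0.05, since its smallest p is 0.1. With 1 array left out the statistic ran from -0.0229 to 0.0143.

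Counts of genes whose arrays do not overlap were less stable. Against control bladder 1 and 2 alone they were 3009 higher and 2289 lower. With a further quantile normalization, tried after seeing the data, 221 were lower, and without predicted, small RNA and chemosensory genes, also tried later, 66 were higher. For the other values the limit of a move was the SD of the 5 controls. That SD holds the difference between the 2 kinds of control (for Acta2 1.66, against 0.06 in control bladder 1 and 2), so it is a wide limit. Under it, 118 list medians and 200 differences of named genes moved, while 1231 and 4607 did not, and no called value changed sign. What sets these shifts was not tested. Signal over background was not analysed here, so dim values carry no detection limit.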

Other observations

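Further pathways were listed after the genes with the smallest p had been seen, so their values are descriptions. Hedgehog signaling passes between urothelium and the stroma beneath it, and Ptch1 and Hhip are both its targets and its brakes. Hhip read 6.66, 5.03 and 6.86 in treated tissue, 9.29 and 8.78 in the first pair of controls (1 and 2), and 5.71, 5.70 and 6.0 in the near-mean ones, a difference of -2.85 against the pair and -0.91 over all controls. Gli1, the factor at the end of the pathway, read 5.93, 5.78 and 5.91 against 6.47 and 5.97 in the pair, and Shh, the ligand, 5.14, 5.71 and 5.87 against 5.72 and 5.75. Of the 8 Hedgehog genes 8 had a lower treated mean against the pair (median -0.18), and 4, Ptch1 among them, had all treated arrays below both controls (all genes, 7.59%). Ptch1 prompted the list.

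Circadian clock genes gave a similar order. Nr1d1, a repressor of the clock loop, read 5.65, 6.06 and 5.65 in treated bladder against 7.08 and 6.92 in control bladder 1 and 2, with 5.59 to 5.91 in control bladder 4 to 6. Of 14 clock genes 13 had a lower treated mean over all controls (median -0.11) and 11 against the pair (median -0.27), where 6 lay wholly below both controls (all genes, 7.59%). Dbp and Per3 prompted the list and are counted in it. Per1 ran the other way against the pair, at 5.72 to 5.99 against 5.87 and 5.62. No source used here states the time of day of sampling.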
